A study of Mus musculus with 4 samples.

Results

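The genes described here are 9 components, regulators and receptors of the complement system, C1qa, C1qb, C1qc, C1ra, C4b, C3, Cfd, Serping1 and C3ar1. They were found by their gene symbol among the 50593 genes of the deposited table of mouse sciatic nerve, and all 9 are in it. Sciatic nerve RNA was sequenced in 4 samples from mice of strain 129S1/SvImJ at 6 months of age. Of these samples, 2 were labelled HSF V30M TTR and 2 HSF WT TTR. The HSF V30M mice carried a transgene for the human V30M variant of transthyretin (TTR), a transport protein of blood that can form amyloid, on an endogenous Ttr-null background. The HSF WT mice carried no transgene, and both groups were heterozygous for deletion of Hsf1, the gene of heat shock factor 1. The promoter that drives the transgene is not given in the sources used here. The study asked whether the expression of chemokines is impaired in the nerve of this amyloidosis model. The complement genes were chosen by their role and with the FPKM values of both groups in view, so the values that chose them are given as a description.

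Complement is a cascade of blood and tissue proteins that marks surfaces for clearance and calls in immune cells. The classical pathway starts when C1q, built of A, B and C chains, binds a target and its attached proteases C1r and C1s cut C4 and C2. The alternative pathway runs through C3, factor B and factor D, and all pathways meet at the cleavage of C3. In tissues, C1q is known as a product of macrophages, factor D (adipsin) as a product of adipocytes, and C3, C4, C1r, C1s and C1 inhibitor as products of fibroblasts, among other cells.

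The table holds 1 FPKM value per gene and group (fragments per kilobase of transcript, scaled to depth, estimated by the authors with Cuffdiff, which pools the libraries of a group). No value per mouse was used, so no spread between mice and no test between the groups can be given, and every difference below lacks a replicate check. Differences are given as log2((HSF V30M + 1) / (HSF WT + 1)) of the FPKM values, where negative values are lower in HSF V30M, and a gene was counted as past the fold when this ratio exceeded 1.5 in either direction. Where an interval is given, it is an exact binomial interval at 95% on the plain FPKM ratio, built from the number of sequenced fragments behind the values, and it covers counting error only. The worth of 1 fragment showed that the libraries of a group differed in depth, 1.18-fold in HSF V30M and 1.35-fold in HSF WT. For 15620 genes the mean FPKM of both groups was 1 or more, and their median log2 ratio was 0.00. Mouse Ttr, null in HSF V30M by its genotype, goes against the labels: it had 6.10 FPKM under the label HSF V30M and 0 under the label HSF WT. Reads of the human transgene that align to the mouse gene, a true mouse transcript and an exchange of the columns of the groups cannot be told apart here. An exchange would turn every direction given below, and the groups are named by their labels. Hsf1, which is heterozygous in both groups, was at 7.94 and 15.0 FPKM in the groups labelled HSF V30M and HSF WT. Its log2 ratio of -0.84 was past the fold, and its plain ratio of 1.88 had a counting interval from 1.28 to 2.79. The reason for this difference was not tested.

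In the group labelled HSF V30M, 7 of the 9 complement genes were lower than in the group labelled HSF WT. Of these, C1qb, C1qc, C3 and C3ar1 were past the fold, and no member was past it in the other direction. Across all genes of this minimum mean, 49.6% were lower, with 8.44% past the fold on the lower side and 8.22% on the higher side. Among the 4225 genes with a mean of at least 20, which are less affected by counting noise, 5.94% were past it on the lower side and 8.36% on the higher. Since the members were chosen with these values in view, their count of 4 in 9 is a description. With a fold over 2, C1qb and C1qc were past it on the lower side. Of all genes, 3.94% were then past it on the lower side and 3.98% on the higher. The median log2 ratio of the 9 members was -0.45, with a range from -1.23 for C1qb to 0.13 for Serping1.

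**Figure D1:**
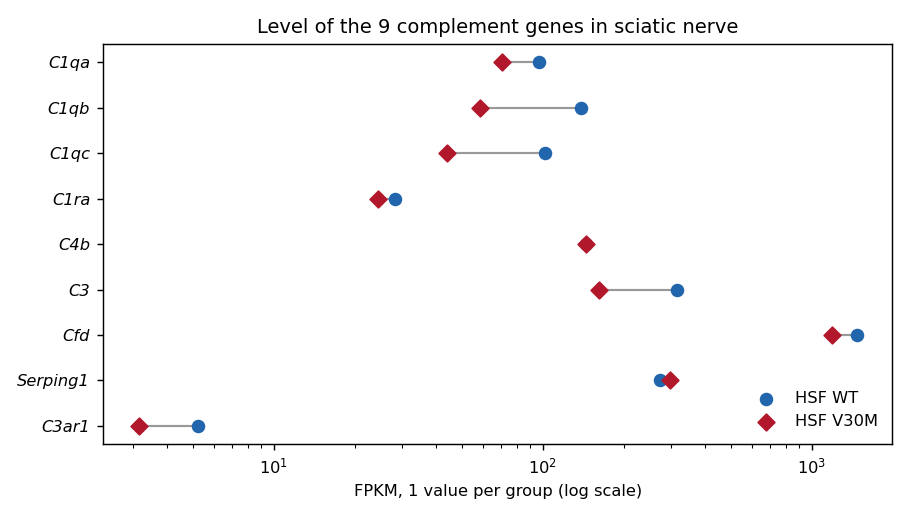
FPKM of each of the 9 complement genes on a log axis, with a circle for HSF WT and a diamond for HSF V30M, each being 1 value per group. The diamonds of C1qb, C1qc and C3 lie far to the left of their circles, and those of C4b and Serping1 do not.

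The members spanned a wide range of abundance in the nerve. In HSF WT the order on the FPKM scale, from high to low, was Cfd, C3, Serping1, C4b, C1qb, C1qc, C1qa, C1ra and C3ar1. In HSF V30M it was Cfd, Serping1, C3, C4b, C1qa, C1qb, C1qc, C1ra and C3ar1, so that C3 and Serping1 changed places and the C1q chains took another order. Cfd alone made up 57.1% of the summed FPKM of the 9 genes in HSF WT and 59.6% in HSF V30M. In the order of all genes by FPKM it stood at place 118 in HSF WT and 152 in HSF V30M. Whether neighbours in these orders differ beyond the spread between mice cannot be said from 1 value per group.

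**Figure D2:**
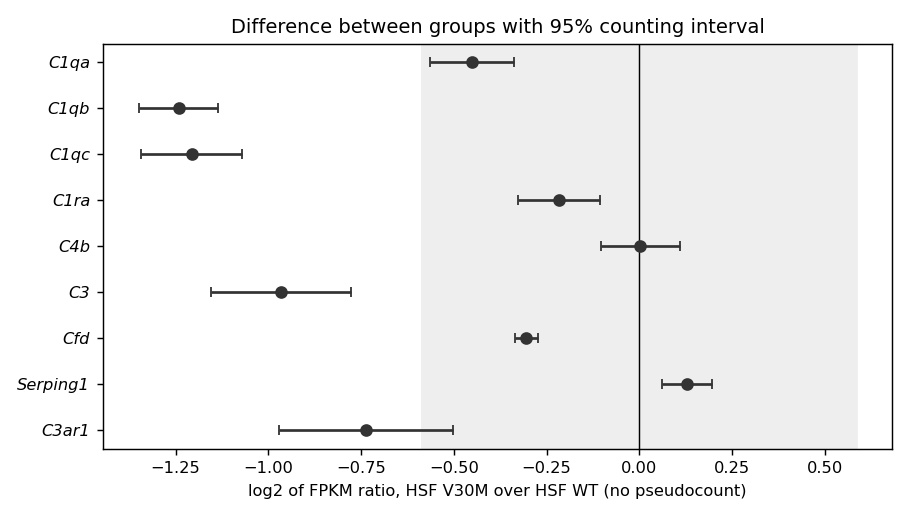
Log2 of the plain FPKM ratio of HSF V30M over HSF WT for the 9 complement genes, with bars for the 95% counting interval, which holds no variation between mice. The grey band marks folds up to 1.5, and C1qb, C1qc and C3 lie outside it with their whole bars.

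The C1q chains are encoded side by side on the minus strand of chromosome 4 of GRCm38, within 18.7 kb. C1qb (ENSMUSG00000036905) spans 136880129 to 136886187, C1qc (ENSMUSG00000036896) 136889804 to 136893065 and C1qa (ENSMUSG00000036887) 136895917 to 136898803, and each has 3 exons in its longest annotated transcript. The DNA just upstream of the start sites of C1qb and C1qc is shown because these neighbours had almost the same ratio. Both are from the RefSeq promoter windows of GRCm38.p6, written 5′ to 3′ on the minus strand and ended before the outermost annotated start, with motif matches in capitals.
C1qb (chr4:136886201-136886450): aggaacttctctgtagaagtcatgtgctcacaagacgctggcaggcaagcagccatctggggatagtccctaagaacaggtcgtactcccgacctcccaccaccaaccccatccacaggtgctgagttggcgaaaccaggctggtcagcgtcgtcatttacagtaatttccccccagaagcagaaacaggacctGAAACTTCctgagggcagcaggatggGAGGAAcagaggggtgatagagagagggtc
C1qc (chr4:136893066-136893164): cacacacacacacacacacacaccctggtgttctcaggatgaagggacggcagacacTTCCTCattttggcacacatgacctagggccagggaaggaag
The C1qc stretch is shorter because GENCODE places the start of C1qc at 136893065 and RefSeq at 136892914.

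The windows were searched on both strands for PU.1 (GAGGAA), a factor of the macrophage lineage, C/EBP (TTGCNNAA), IRF (GAAA, any 2 bases, then GAAA again), STAT (TTCNNNGAA) and the heat shock element (HSE, GAANNTTC). Each window of 300 bases ran from 250 before to 50 after the RefSeq start, and 6 of the 9 members had one. There was none for C1qa, C4b and Serping1, so C1qa cannot be set beside its neighbours here. Binding at the matches was not tested. The capitals in C1qb mark an HSE match at -56 to -49 and a PU.1 match at -30 to -25 from the start, and a further HSE match lay after the start at 32 to 39. The capitals in C1qc mark a PU.1 match on the other strand at -193 to -188 from the RefSeq start. C1ra, which was not past the fold, had matches after its RefSeq start to C/EBP (16 to 23), STAT (32 to 40) and PU.1 (44 to 49). Of 32817 promoter windows of this length, 28.3% held a PU.1 match and 7.86% an HSE match, 10.8% a C/EBP match, 8.29% a STAT match and 3.43% an IRF match. No matches overlapped each other in the members' windows.

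C1qb was at 139 FPKM in the group labelled HSF WT and at 58.7 in the group labelled HSF V30M. About 1904 to 2564 fragments stood behind the first value and 1137 to 1338 behind the second. The log2 ratio was -1.23, and the plain FPKM of HSF WT was 2.37 times that of HSF V30M, with a counting interval from 2.20 to 2.55. C1qc, the third chain, was at 102 FPKM in HSF WT and 44.1 in HSF V30M, with a log2 ratio of -1.19 and a plain ratio of 2.31 (counting interval 2.10 to 2.54). The intervals of C1qb and C1qc overlapped over most of their length. C1qa was at 96.5 FPKM in HSF WT and 70.6 in HSF V30M, with a log2 ratio of -0.45, and was not past the fold. Its plain ratio of 1.37 had a counting interval from 1.26 to 1.48, which lies below those of both other chains.

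On these single values per group, the chains stood in a different proportion in the 2 groups. Whether this exceeds the spread between mice cannot be said. C1qa made up 28.6% of the summed C1q FPKM in HSF WT and 40.7% in HSF V30M. C1qb made up 41.2% and 33.9%, and C1qc 30.2% and 25.4%. C1qb stood to C1qc as 1.36 to 1 in HSF WT and as 1.33 to 1 in HSF V30M, whereas C1qb stood to C1qa as 1.44 to 1 in HSF WT and as 0.832 to 1 in HSF V30M. The summed FPKM of the chains was 337 in HSF WT and 173 in HSF V30M. In the longest transcript of each chain, none of the windows of 50 bases occurs in an annotated transcript of another gene, and the coding sequences are 61.1% to 62.2% identical in pairs, so that reads of these genes can be told apart.

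**Figure D3:**
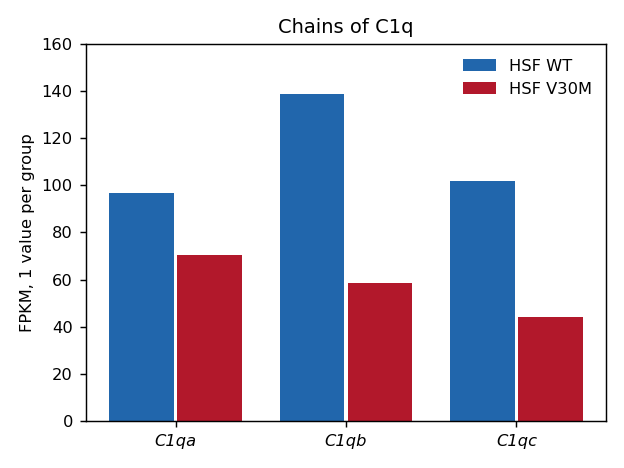
FPKM of the C1q chains as bars from 0, with 1 value per group for HSF WT and HSF V30M. C1qb was the highest chain in HSF WT at 139 FPKM, and C1qa the highest in HSF V30M at 70.6.

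C1q is known as a macrophage product, so a list of 12 macrophage genes was set beside it. Of these, 8 were lower and 4 higher in HSF V30M, 2 were past the fold, both lower, and the median log2 ratio was -0.27. All 12 reached a mean FPKM of 1. Csf1r, the receptor for macrophage colony-stimulating factor, was at 36.0 FPKM in HSF WT and 31.2 in HSF V30M. Adgre1, which encodes F4/80, was at 7.70 and 7.98. Aif1 was past the fold, at 9.98 FPKM in HSF WT and 5.43 in HSF V30M. Cx3cr1 and Mrc1 were lower inside the fold, with log2 ratios of -0.56 and -0.50. The 4 higher genes, Adgre1 among them, had log2 ratios of at most 0.25. Cd74, the invariant chain of MHC class II and the highest gene of the list, was at 338 and 280, and Cd68, a lysosomal protein of macrophages, had the largest difference of the list, at 30.9 and 15.5. The summed FPKM of the list was 1.22 times as high in HSF WT as in HSF V30M, and 1.24 times without Cd74, which B cells also make, against 1.94 times for the C1q chains. In RNA of whole nerve, fewer cells of a type and less RNA per cell cannot be told apart. The part of macrophage number in the C1q values was not tested.

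The proteases of C1 are encoded in a cluster on chromosome 6, where C1ra (ENSMUSG00000055172, 124512405 to 124523443, plus strand) lies 6.90 kb from C1s1. C1ra was at 28.3 FPKM in the group labelled HSF WT and at 24.4 in the group labelled HSF V30M, with a log2 ratio of -0.21 and 1217 to 1639 fragments against 1481 to 1742. It was not past the fold. C1s1, the gene of the protease that C1r activates, was at 73.6 FPKM in HSF WT and 104 in HSF V30M, with a log2 ratio of 0.49, which was also inside the fold. C1s1 thus stood to C1ra as 2.60 to 1 in HSF WT and as 4.25 to 1 in HSF V30M.

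Both proteases have a second copy in this cluster. C1rb was at 0.260 FPKM in HSF WT and is listed at 0 in HSF V30M, where 3 fragments would have given 0.0617. C1s2 was at 5.83 FPKM in HSF WT and 0.18 in HSF V30M, with a log2 ratio of -2.53, the lowest of the wider complement list. About 222 to 299 fragments in HSF WT stood against 10 to 11 in HSF V30M, which gives a plain ratio of 32.4 with a counting interval from 17.3 to 68.5. The C1s copies are 95.7% identical over 2082 coding bases, with 90 differences, and 26.9% of the windows of 50 bases in the C1s2 transcript also occur in C1s1. A coding stretch of the reference genes is shown to let the copies be compared, positions 1454 to 1543 from the first coding base, with the 20 differing bases in capitals.
C1s1: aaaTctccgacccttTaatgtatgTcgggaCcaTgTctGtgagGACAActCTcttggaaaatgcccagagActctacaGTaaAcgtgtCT
C1s2: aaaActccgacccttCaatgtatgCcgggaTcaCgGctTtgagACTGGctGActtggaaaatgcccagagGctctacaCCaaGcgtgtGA
It was taken as the 90 aligned bases with the most differences. Summed over both copies, C1s was at 79.4 FPKM in HSF WT and 104 in HSF V30M, and C1s2 made up 7.34% of the sum in the former and 0.173% in the latter. The mice were of strain 129S1/SvImJ and the reads were aligned to the genome of C57BL/6J, and the split of reads between such copies is uncertain. For C1ra and C1rb, which are 98.0% identical in coding sequence, 48.0% of the C1ra windows occur in C1rb.

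C4b (ENSMUSG00000073418), whose product is cut by C1s and then forms part of the classical C3 convertase, lies on chromosome 17 from 34728380 to 34743882. It was at 145 FPKM in both groups, with a log2 ratio of 0.00 and a counting interval of the plain ratio from 0.927 to 1.07. The near copy C4a, on the same chromosome from 34809092 to 34823464, was at 6.27 FPKM in HSF WT and 2.95 in HSF V30M, with a log2 ratio of -0.88 that was past the fold. Because 35.2% of the windows of the C4b transcript also occur in C4a, the split between them is uncertain. Their sum was 151 FPKM in HSF WT and 148 in HSF V30M. C2, the other substrate of C1s, was at 60.8 and 59.95 FPKM. Its locus in the table is shared with Cfb, and the overlapping gene Gm20547, listed at 0 in both groups, holds 58.0% of its windows.

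C3 (ENSMUSG00000024164), the component on which all pathways meet, lies on the minus strand of chromosome 17 from 57203970 to 57228136. The bases before its start site are shown because C3 is the most abundant member past the fold.
C3 (chr17:57228137-57228386): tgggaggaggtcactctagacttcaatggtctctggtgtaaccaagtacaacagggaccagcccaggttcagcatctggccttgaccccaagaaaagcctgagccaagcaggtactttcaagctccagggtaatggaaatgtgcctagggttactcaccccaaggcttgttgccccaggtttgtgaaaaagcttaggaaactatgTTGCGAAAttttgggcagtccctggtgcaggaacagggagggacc
The capitals mark a C/EBP match at -45 to -38 from the start, the only match found in this window. C3 was at 315 FPKM in the group labelled HSF WT and at 161 in the group labelled HSF V30M. The log2 ratio was -0.96, and the plain ratio of 1.95 had a counting interval from 1.72 to 2.22, taken from the shortest annotated transcript and so wider than the longest one would give. In HSF WT, C3 stood to C4b as 2.18 to 1, and in HSF V30M as 1.11 to 1.

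All 4 genes of the alternative pathway list were lower in HSF V30M. Cfb, the gene of factor B, which joins C3b in the alternative C3 convertase, was at 36.0 FPKM in HSF WT and 21.8 in HSF V30M, with a log2 ratio of -0.70 that was past the fold. For Cfb, 81.4% of the transcript windows also occur in Gm20547. Cfp, which encodes properdin, the protein that stabilises this convertase, was at 12.1 and 8.47 FPKM, with a log2 ratio of -0.47 inside the fold.

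Cfd (ENSMUSG00000061780) encodes factor D, the protease that cuts factor B. It lies on the plus strand of chromosome 10 from 79890853 to 79892655 and was the most abundant complement gene in both groups, at 1467 FPKM in the group labelled HSF WT and 1188 in the group labelled HSF V30M. The log2 ratio was -0.30, inside the fold, and the counting interval of the plain ratio of 1.24 was narrow, from 1.21 to 1.26. No searched motif was found in its promoter window. Adipocyte genes were also lower: all 8 of the list were below 0 on the log2 scale, 3 of them past the fold, with a median of -0.41. Fabp4, a fatty acid binding protein, was at 722 FPKM in HSF WT and 462 in HSF V30M, Adipoq, the gene of adiponectin, at 543 and 319, and Lep, the gene of leptin, had the largest difference, at 33.4 and 7.47. Plin1, which encodes the coat protein of lipid droplets, was at 210 and 173, and the ratio of Cfd to it was 1.02 times as high in HSF WT as in HSF V30M. Relative to Adipoq, Cfd was at 2.70 in HSF WT and 3.73 in HSF V30M. The summed FPKM of the adipocyte list was 1.49 times as high in HSF WT as in HSF V30M, and the part of fat around the nerve in the Cfd value was not tested.

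Serping1 (ENSMUSG00000023224) encodes C1 inhibitor, which removes C1r and C1s from C1q. It lies on chromosome 2 from 84765387 to 84775444 and was at 272 FPKM in the group labelled HSF WT and 297 in the group labelled HSF V30M. Its log2 ratio of 0.13 was the highest of the members and inside the fold. Serping1 thus stood to C1qa as 2.82 to 1 in HSF WT and as 4.21 to 1 in HSF V30M. The other abundant regulators of the fluid phase were inside the fold as well. Clu, the gene of clusterin, which binds the terminal complex, was at 72.3 FPKM in HSF WT and 61.1 in HSF V30M, and Vtn, the gene of vitronectin, at 54.6 and 53.3.

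Among 7 regulators of the cell membrane with a mean FPKM of at least 1, 1 was past the fold on each side. Cr1l, the rodent regulator also called Crry, was the highest by mean and was at 33.1 FPKM in HSF WT and 28.9 in HSF V30M. Cd55, which speeds the decay of convertases, was at 27.7 and 22.8, and Cd59a, which blocks the terminal complex, at 19.5 and 23.85. Cd59b, its copy, was at 2.95 and 1.49, with a log2 ratio of -0.67 past the fold, but as few as 8 fragments may stand behind the HSF V30M value and its counting interval, from 0.726 to 5.68, includes 1. Susd4, a membrane protein that inhibits complement, was, of the genes in the wider list that reach a mean FPKM of 1, the only one past the fold on the higher side, at 2.07 FPKM in HSF WT and 4.95 in HSF V30M, with a log2 ratio of 0.96.

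C3ar1 (ENSMUSG00000040552) encodes the receptor for C3a, the fragment released from C3, and is known from macrophages and other myeloid cells. It lies on the minus strand of chromosome 6 from 122847138 to 122856161, and the bases before its start are shown because it is the receptor among the members.
C3ar1 (chr6:122856162-122856407): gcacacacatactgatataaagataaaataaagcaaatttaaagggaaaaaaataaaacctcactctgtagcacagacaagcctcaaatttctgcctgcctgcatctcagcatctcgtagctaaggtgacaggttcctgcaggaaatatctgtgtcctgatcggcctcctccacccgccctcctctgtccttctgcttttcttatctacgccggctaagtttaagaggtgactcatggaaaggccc
None of the searched motifs was found in its window, hence the absence of capitals. C3ar1 was at 5.25 FPKM in the group labelled HSF WT and 3.15 in the group labelled HSF V30M, the lowest level of the members. The log2 ratio of -0.59 was only just past the fold, at 1.51-fold with the pseudocount, and C1qa, at 1.36-fold, was the nearest member inside it. About 333 to 448 fragments in HSF WT stood against 282 to 332 in HSF V30M, and the plain ratio of 1.67 had a counting interval from 1.42 to 1.96. C5ar1, the receptor for C5a, was at 4.78 FPKM in HSF WT and 4.79 in HSF V30M, with a log2 ratio of 0.00.

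Of the receptors that bind C3 fragments, Itgax, which encodes CD11c, was at 3.88 FPKM in HSF WT and 1.35 in HSF V30M, with a log2 ratio of -1.05, past the fold. Itgb2, its common beta chain and the highest receptor gene by mean, was at 10.7 and 11.3, and Itgam, which encodes CD11b, at 7.35 and 5.93. Itgam is listed under 2 gene identifiers, of which the higher was used. Cr2, the complement receptor of B cells and follicular dendritic cells, was at 1.51 FPKM in HSF WT and 0.46 in HSF V30M, with a mean under 1, so that it is outside the counts. The B cell list moved with it: 4 of its 5 genes had a mean of at least 1, all 4 were past the fold on the lower side, and their median log2 ratio was -1.87. Cd79b, a chain of the B cell receptor, had the largest difference at 7.16 FPKM in HSF WT and 0.53 in HSF V30M, and Cd79a, its partner, was at 7.09 and 0.65. The part of B cells in the receptor values was not tested.

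The wider complement list held 58 genes, all in the table, of which 5 are listed at 0 in both groups and 35 had a mean FPKM of at least 1. Of these 35, 25 were lower and 10 higher in HSF V30M, 9 were past the fold on the lower side and 1 on the higher, and the median log2 ratio was -0.24. Over all genes of this minimum mean, 49.6% were lower, with 8.44% past the fold on the lower side and 8.22% on the higher. Without the 9 members, 26 genes of the list were left. Of those, 5 were past the fold on the lower side and 1 on the higher, with a median of -0.14. The lower ones were C1s2, C4a, Cfb, Cd59b and Itgax, of which only C1s2 and Cfb had a counting interval of the plain ratio clear of 1 on the lowest estimate of their fragments. The medians by role again include the 9 members, which were chosen with their values in view. By role, the median log2 ratio was -0.33 over 10 genes of the classical pathway, -0.58 over 4 of the alternative pathway and -0.15 over 6 receptors. It was -0.04 over 4 regulators of the fluid phase and 0.04 over 7 of the membrane.

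Most genes of the lectin and terminal pathways were low. Only 3 of the 8 lectin pathway genes had a mean of at least 1, none of them past the fold, and the highest was Fcna, the gene of ficolin A, at 6.03 FPKM in HSF WT and 4.63 in HSF V30M. Mbl1, a mannose-binding lectin, is listed at 0 in both groups, where 3 fragments would have given 0.284 in HSF WT and 0.201 in HSF V30M. Of the 7 components of the membrane attack complex, C7 alone had a mean of at least 1, at 3.41 and 2.32 FPKM. C8b is listed at 0 in both groups, and a count of 0 allows up to 0.226 in HSF WT and 0.160 in HSF V30M.

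**Figure D4:**
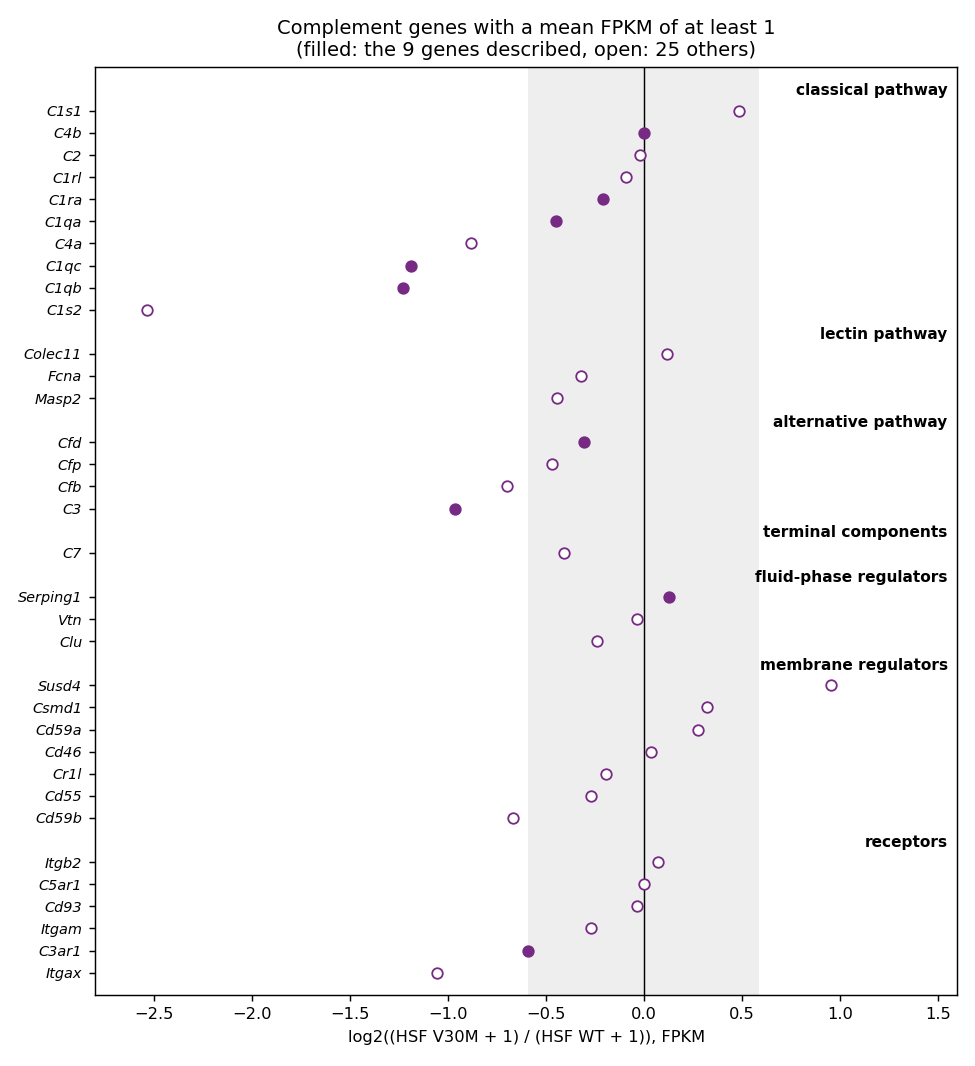
Log2((HSF V30M + 1) / (HSF WT + 1)) of 34 of the 35 complement genes that reach a mean FPKM of 1, sorted within each role, with filled circles for the 9 members and open circles for 25 others. The grey band marks folds up to 1.5, and C1s2 lies farthest to the left at -2.53 and Susd4 farthest to the right at 0.96.

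The tissue label and the cells that the samples held were read from marker lists. Genes of myelinating Schwann cells were abundant, with Mbp, the gene of myelin basic protein, at 3441 FPKM in HSF WT and 3854 in HSF V30M, and none of 8 past the fold. Of 8 fibroblast genes, 2 were past the fold on the lower side, with a median of -0.30. Dcn, the gene of decorin, was at 1320 and 1331 FPKM and Col1a2 at 287 and 314. Pi16, a fibroblast marker that had the largest difference of this list, was at 82.96 FPKM in HSF WT and 42.4 in HSF V30M. All 6 skeletal muscle genes were past the fold on the lower side, with Ckm, the gene of muscle creatine kinase, at 43.8 and 8.97 FPKM, Mylpf, a myosin light chain, at 33.9 and 7.55 and Myh4, a fast myosin with the largest difference of the list, at 21.1 and 3.74. Of 7 neutrophil genes, 6 were past the fold on the higher side and 1 on the lower, with S100a9 at 13.8 FPKM in HSF WT and 59.0 in HSF V30M and Ngp at 2.96 and 14.4. Of 6 endothelial genes, 2 were past the fold, both higher, among them Cldn5 at 57.9 and 100.2 FPKM. Pecam1 was lower and inside the fold, at 56.5 and 44.9. Hepatocytes are the main known source of complement in blood, and of 7 hepatocyte genes only Alb and Ttr had a mean of at least 1, and Alb was at 3.82 and 1.76 FPKM. The part of these lists in the complement values was not tested, and differences in the tissue around the nerve and genotype cannot be told apart here.

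**Figure D5:**
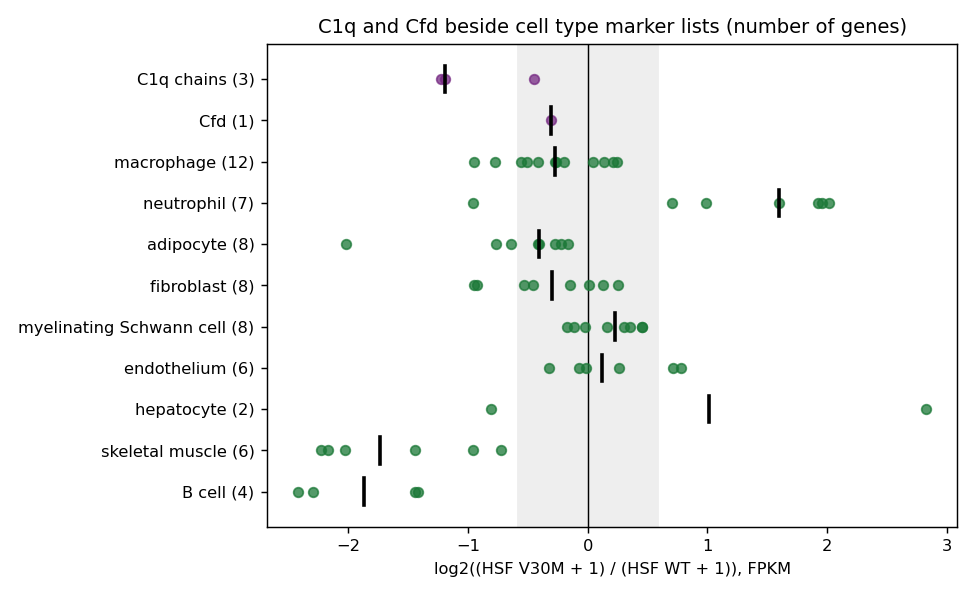
Log2((HSF V30M + 1) / (HSF WT + 1)) of the C1q chains and Cfd beside the genes of 9 marker lists that reach a mean FPKM of 1, where each dot is a gene, each black bar a median and the grey band folds up to 1.5. The medians of the skeletal muscle list (-1.73) and the B cell list (-1.87) lie to the left of that of the C1q chains (-1.19), and that of the neutrophil list lies on the right.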

How the data were processed

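RNA of mouse sciatic nerve was sequenced by the authors from Ion Torrent libraries in 4 samples, 2 a group. The reads were aligned to GRCm38. STAR, Cufflinks and Cuffdiff are named in the submitters' processing notes. Versions and the gene annotation are not given in the sources used here. The authors deposited 1 table with the FPKM of each gene in each group, written with decimal commas, which were replaced by points. Its fold changes, test statistics, p-values, q-values and significance marks are the authors' own comparison and were not used. Columns of the table were assigned to groups by the letters A and G, which the sample titles carry. The methods give n = 4 without saying whether this is per group or whether each sample is 1 mouse.

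Genes with too many alignments (23) were left out. Ratios used a pseudocount of 1 FPKM, a minimum mean of 1 and a fold over 1.5. The design foresaw no test, since there is 1 value per group. The worth of 1 fragment came from the 17276 genes that have a single transcript and share no locus. After 200 bases were subtracted from the transcript, the lowest values of FPKM times kilobases gathered at 0.0481 and 0.0648 (HSF WT) or 0.0390 and 0.0458 (HSF V30M). Of 1646 low HSF WT values, 98.1% lay within 2% of whole fragments, and of 544 HSF V30M values, rounded to 2 decimals, 97.8% lay within 5%. Fragments are a range over annotated transcripts, intervals use its lower end, and a limit at 0 is 3 fragments on the shortest transcript. PCR copies are not independent, and these cover counting error only. Shared windows of 50 bases were counted over all GENCODE M21 transcripts, which also gave positions. Promoter windows are from RefSeq on GRCm38.p6, and no protein sequences were used. The scripts were tested on simulated data.

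The members and all gene lists were chosen with earlier results of these data known. Named are the 9 members, genes of the wider list past the fold whose higher group reached 1 FPKM, the highest gene of each role, relatives of members, and in each marker list the 2 highest genes and the one with the largest change past the fold. Adgre1, Plin1, Mbl1, C8b, Clu, Vtn, Cfp, C2, Cd55, Cd59a, Itgam, C5ar2, Vsig4 and the neighbouring genes were named in addition after their values were seen. The same holds for Aif1, Cx3cr1 and Mrc1. The software was scipy 1.17.1, numpy 2.4.6 and pandas 2.3.3 under Python 3.11.15, with matplotlib 3.10.9 for plots. The alternatives were pseudocounts of 0.1 and none, 2 scalings, minimum means of 5 and none, a fold over 2 and sums of near-identical copies. Some genes of the lists are counted but not reported here by name.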

Additional observations from a re-analysis of the deposited data

How the results depend on the processing

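No paired analysis was possible because there is a single deposited FPKM for each gene and group, and for the same reason no replicate could be left out. With a fold over 2, C1qb and C1qc remained, so that 2 members were past it. In the wider list 4 genes were then past it on the lower side and 0 on the higher. The marker lists had 9 and 5 and all genes 616 and 621, a stricter setting by construction. With a minimum mean FPKM of 5, which leaves out C3ar1, 3 members were past the fold. The wider list then had 4 genes past the fold on the lower side and 0 on the higher, against 9 and 1. The marker lists had 12 and 5 against 19 and 9, and all genes 646 and 732 against 1319 and 1284, since fewer genes are counted. Without a minimum, the median of the wider list was -0.091 and 2 of its genes were past the fold on the higher side. Under these alternatives the 4 members past the fold stayed lower, and the 55 recomputed ratios of single members stayed within their counting intervals. C3ar1 moved most, from -0.59 to -0.74 without a pseudocount. Median-of-ratios and upper-quartile scaling shifted all genes by at most 0.005 on the log2 scale. C4b was at -0.03 when summed with C4a. Leaving out C2 and Cfb, or summing the C1s and C1r copies, were alternatives added after seeing the data. Each left 8 genes of the wider list past the fold on the lower side. The fragments behind C3, C4b and Serping1 depend on the transcript: for C3 in HSF WT they were 560 on the shortest and 24024 on the longest. The counting intervals of Cd59b, C4a and Itgax include a ratio of 1 on the shortest annotated transcript, where C4a had 10 fragments in HSF V30M and 15 in HSF WT, against 333 and 501 on the longest.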

Other observations

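The nearest protein-coding genes on either side of the C1q cluster, C3 and C3ar1 had ratios inside the fold of 1.5. Epha8 and Tnfsf14 were near 0, and for Tnfsf14 the pseudocount alone keeps the ratio inside it. Ephb2, 44.1 kb from the C1q cluster, was at 10.1 FPKM in HSF WT and 10.4 in HSF V30M, and Epha8, 30.6 kb away on the other side, was at 0.0106 and 0.01 FPKM. Gpr108, 6.50 kb from C3, was at 21.6 and 20.3 FPKM, and Tnfsf14, on the other side of C3, was at 0.146 and 0.08. Foxj2, 1.77 kb from C3ar1, was at 15.9 and 16.8 FPKM, and Necap1 at 16.1 and 12.2, with a log2 ratio of -0.38. Elane, the gene of neutrophil elastase, lies 2.64 kb from Cfd, and was at 0.0826 FPKM in HSF WT and 0.78 in HSF V30M. Its log2 ratio of 0.72 was past the fold, but its mean was under 1. Med16, on the other side of Cfd, was at 11.1 and 13.1. Gm19426, 21.7 kb from Serping1, was at 3.15 and 5.42 FPKM, with a log2 ratio of 0.63 past the fold. C5ar2, the second receptor for C5a, had a mean under 1 and was at 0.157 FPKM in HSF WT and 0.75 in HSF V30M, about 8 to 11 fragments against 52 to 62, a direction opposite to that of C3ar1. Vsig4, a complement receptor of resident macrophages, was at 0.0525 and 0.39 FPKM, with at most 1 fragment in HSF WT.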
